A study of Homo sapiens with 6 samples.

Results

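Unannotated antisense loci are places where long reads aligned over an annotated gene but on the opposite strand, at a position that the annotation leaves empty. The loci described here were all those to which TALON, the program that compares long reads with an annotation, had given the gene class Antisense in a count table of Calu-6 cells. They numbered 1746 loci with 2933 transcript models, out of 10072 genes with 21472 models in the whole table. Calu-6 is a cell line established from a lung cancer. It was exposed for 48 h to 10 nM of either a non-silencing siRNA (siControl, 3 libraries) or an siRNA against the junction of exon 1 and exon 5 of TERT mRNA, which marks the splice variant Delta 2-4 (siDelta2-4, 3 libraries). The sample labels gave both groups the genotype WT, whereas the names of the count columns carried the word Empty, which the study used for cells with an empty expression vector, and these names could not be reconciled here. The study called the libraries of a group biological replicates, while the labels did not say whether they came from separate cultures. The p-values therefore set the difference between groups against the spread among these libraries alone.

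Antisense transcription is common in human genomes. An antisense RNA can share sequence with the RNA of the gene opposite, can be spliced and polyadenylated, and at some loci is known to act on the gene opposite through chromatin, RNA pairing or the collision of polymerases. The genome sequence at the ends of the introns that a spliced read skips can show its strand. A read of a single exon has no such sign. The sources used here do not say that strand was set in this way. A cDNA read assigned to the wrong strand would also be placed in this class, and the sources used here do not state that the counting kept strand, so reads of an annotated gene and of its antisense locus cannot be told apart from the counts. The table gave these loci TALON identifiers with no position and no name of the gene opposite, so the loci are described by their identifiers, exon numbers, lengths and counts.

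The 6 libraries held between 1037468 and 1309241 counts, and TERT had 0 rows in the table. One library stood apart. Over genes with at least 20 counts in a pair of libraries, the chi-square per degree of freedom between the siControl library with the smallest total and the other siControl libraries was 3.30 and 2.70 for antisense loci, whereas the other pairs within a group gave 1.39 to 1.81. Against the siDelta2-4 libraries it gave 2.64 to 2.99 for antisense loci. It is called the lowest siControl library, and counts of called loci and models are also given without it where it moved them most. Every pair of libraries within a group differed by more than counting noise, and no libraries were merged. This value cannot show whether they came from separate cultures. Other libraries are likewise named highest, middle or lowest by their total count within the group, and values follow that order.

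Antisense loci held 1492650 counts, which was 22.0% of all counts. In siControl the share was 21.7%, 21.9% and 22.4%, and in siDelta2-4 it was 22.1%, 22.3% and 21.5%. The groups overlapped, and their means differed by -0.046 percentage points, less than the SD of either group (0.368 and 0.413, n = 3 each; p = 1 in an exact two-sided permutation test). With 3 libraries against 3, no p below 0.1 could be reached for a share.

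Most antisense models were spliced. Of the 2933 models, 2762 had more than 1 exon and 171 (5.83%) had a single exon. The median model had 5 exons, and 26 was the highest number. Models with 4 to 6 exons made up 44.8% of the models and held 50.3% of the antisense counts, and those with 7 exons or more made up 28.1% of the models and held 18.2% of the counts.

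The single-exon models were few but some were read very often. They held 257898 counts, or 17.3% of the antisense counts, against 5.83% of the models. Their median count of 85 over the 6 libraries was below the median of 101 for multi-exon models, so that a few of them carried most of this share. At most 1 single-exon model was listed at any locus. For 140 loci it was the only model, 1575 loci had multi-exon models alone, and 31 loci had both kinds.

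Single-exon models were shorter than multi-exon models. Their median length was 617 bases (quartiles 440 and 1056), against 923 bases (661 and 1325) for multi-exon models. Weighted by counts, the mean length was 630 bases for single-exon and 920 bases for multi-exon models. The 2-3 exon models had a median of 744 bases, the 4-6 exon models 792 bases and those with 7 or more exons 1303 bases. The median over all antisense models, 914 bases, lay between that of the models of annotated genes (1125 bases) and that of the unannotated models of annotated genes (785 bases). A single-exon model of locus TALONG000066657 was listed with a length of 1 base and 43 counts, which cannot be a transcript's length, and this locus did not enter the tests because of its low count.

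**Figure D1:**
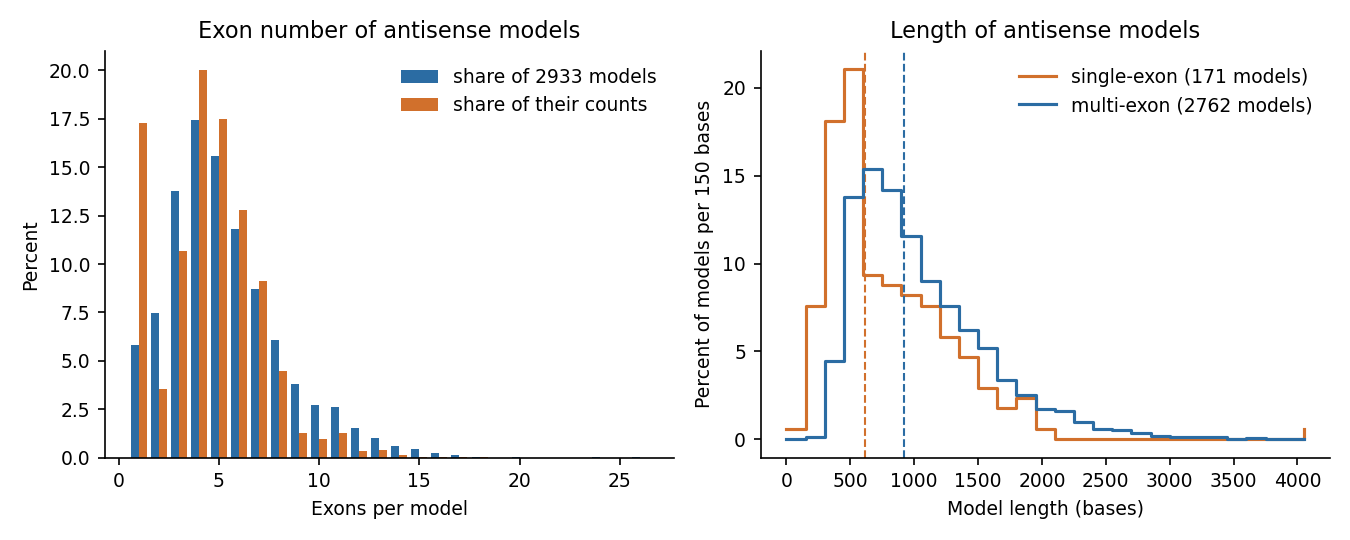
Left, the percent of the 2933 antisense models (blue) and of their counts (orange) at each number of exons. Right, the percent of single-exon (orange) and multi-exon (blue) models per 150 bases of length, with dashed lines at the medians of 617 and 923 bases. Single-exon models stand out by their share of counts, 17.3%, beside 5.83% of the models.

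The longest antisense model, TALONT000396998 of locus TALONG000070561, was a single exon of 4113 bases. It had counts of 143, 126 and 138 in siControl and of 161, 148 and 131 in siDelta2-4. On CPM (counts scaled to the TMM-adjusted library total) the groups overlapped, and its log2 fold change of -0.07 ± 0.12 (SE) was not called (adjusted p = 0.831, edgeR quasi-likelihood test). The model with most exons, TALONT000748799, had 26 exons in 2499 bases and only 24 counts, too few to be tested.

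TALON also labels each model by how it relates to models already in its database. The label Antisense was carried by 1061 models, never more than 1 at a locus. The labels for new combinations of known splice sites (NIC) and for models with a new splice site (NNC) were carried by 1037 and 174 models. The label for models that match part of a longer one (ISM) was carried by 661 models. In 685 loci no model with the Antisense label was listed, and those loci held 55.0% of the antisense counts. In each siControl library ISM models held a larger share of the antisense counts (41.5% to 42.8%) than in any siDelta2-4 library (39.8% to 40.5%), while models with the Antisense label held 35.2% to 35.8% in siControl and 36.8% to 37.2% in siDelta2-4. Neither set of ranges overlapped between groups. These shares were not tested.

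Counts were concentrated in few loci. The 51 most counted loci held 50% of the antisense counts, the 100 most counted held 64.2%, and 239 loci reached 1000 counts. At the other end, 677 loci had fewer than 100 counts. The median locus had 140.5 counts over 6 libraries, so that most loci were measured at low depth. The median coefficient of variation of CPM within a group was 7.83% in siControl and 5.46% in siDelta2-4 for tested loci with at least 1000 counts, and 30.6% and 22.6% for those with fewer than 100.

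Most loci, 1249 (71.5%), had a single model, and these held 30.0% of the antisense counts. At the 497 loci with several models, the most counted model held a median of 76.7% of the locus's counts. At least 10 models were listed at 18 loci, which held 20.7% of the antisense counts. The most models, 32, were listed at TALONG000082570, followed by TALONG000072883 with 26 and TALONG000072747 with 18. No single-exon model was listed at any of these 3.

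**Figure D2:**
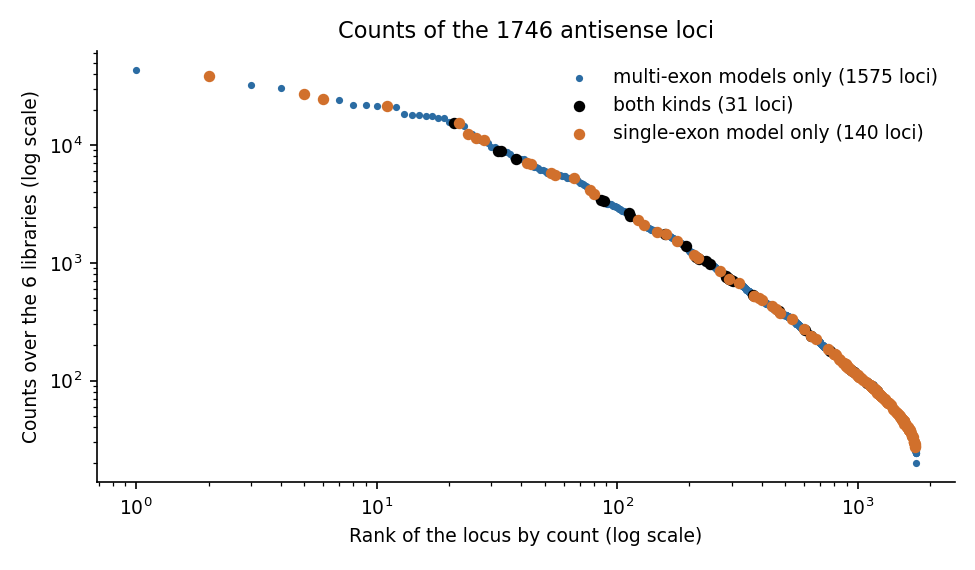
Each point is 1 of the 1746 antisense loci, with its rank by count on the x axis and its counts over the 6 libraries on the y axis, both on log scales. Orange points are the 140 loci with a single-exon model only, black points the 31 loci with both kinds and blue points the 1575 loci with multi-exon models only. Of the 8 most counted loci, 3 had a single-exon model only.

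The rows of the table were chosen on the siDelta2-4 libraries, which bears on every comparison of low counts. All 2933 antisense models had at least 5 counts in each siDelta2-4 library, and 319 had exactly 5 in the library where they were lowest. In siControl, 2385 models reached 5 counts in every library and 27 had a 0 in at least 1 library. None had 0 in all 3. A model that was low in siDelta2-4 and high in siControl would not have been listed, so that a low locus could enter by being higher in siDelta2-4. The same limit held for the other 3465 unannotated models of the table.

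Of the 1746 loci, 1397 passed the filter on low counts, and these held 99.0% of the antisense counts. The most counted locus left out had 76 counts. Between siDelta2-4 and siControl, 186 of the 1397 were called at an adjusted p under 0.1 (edgeR quasi-likelihood test, Benjamini-Hochberg over all genes), 93 higher and 93 lower. This was 13.3% of the antisense loci tested, beside 13.0% of all genes tested, 7.00% higher and 5.97% lower. The median log2 fold change was 0.01 over antisense loci and 0.03 over all genes. The antisense loci as a set were therefore called about as often as the rest of the table.

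CPM did not overlap between groups at 359 of the tested loci (25.7%), beside 26.0% of all genes, and 169 of the called loci were among them. The called changes were modest, with a median absolute log2 fold change of 0.61, and 31 exceeded 1. Without the lowest siControl library, 412 loci were called, 229 higher and 183 lower, among them 173 of the 186. This was 28.1% of the antisense loci tested in that fit, beside 25.4% of all genes. With the same row rule for both groups (at least 5 counts in every library for unannotated models), 177 loci were called, 84 higher and 93 lower. This was 13.2% of the antisense loci tested, beside 12.6% of all genes. Scaled by library totals alone, the split was 114 higher and 59 lower, and in the DESeq2 Wald test it was 23 higher and 50 lower, so that scaling and tool set how many calls went each way. Of all genes 13.2% were called with totals alone and 5.68% in the DESeq2 Wald test.

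Highly counted loci were called lower more often than higher. Of the 239 tested loci with at least 1000 counts, 17 were higher and 40 lower, with a median log2 fold change of -0.10. Annotated genes of the same depth gave 34 higher and 81 lower of 592, with a median of -0.06. Among antisense loci with fewer than 100 counts, where the row rule favours loci higher in siDelta2-4, 20 were higher and 7 lower of 328. Annotated genes with fewer than 100 counts split alike, with 19 higher and 8 lower of 467. The cause of either split was not tested. For the loci with at least 1000 counts, scaling by totals alone gave 24 higher and 29 lower. Leaving out 1 library gave 29 higher and 97 lower without the lowest siControl library, 10 and 14 without the middle and 13 and 21 without the highest one, and 11 and 22, 9 and 15, and 13 and 17 without the highest, middle and lowest siDelta2-4 library. Over all genes 25.4% were called without the lowest siControl library and 4.85% to 7.54% without any other, beside 13.0% with all libraries.

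The single-exon loci were described apart. Of the 140 loci with a single-exon model only, 98 were tested and 21 were called, 7 higher and 14 lower, with a median log2 fold change of -0.14. This was 21.4% of those tested, beside 13.0% of all genes. Single-exon models of annotated genes were called at a like share when tested as models, 36 of 197 (18.3%), 16 higher and 20 lower, beside 15.4% of the single-exon antisense models. Of the 1268 tested loci with multi-exon models only, 160 were called, 82 higher and 78 lower, with a median of 0.02. The loci with both kinds gave 5 calls in 31, 4 of them higher. With totals alone the single-exon loci gave 9 higher and 11 lower calls and a median of -0.07, and without the lowest siControl library 10 higher and 24 lower and a median of -0.18. Leaving out any other single library gave 3 to 5 higher and 8 to 10 lower. In those fits only 4.85% to 7.54% of all genes were called, and 25.4% without the lowest siControl library. The difference between the 2 kinds of loci was not tested, because loci are not replicates of a condition.

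The 12 most counted single-exon loci held 82.5% of the counts of this kind, and 8 of them were called, 2 higher and 6 lower. Among all antisense loci with at least 1000 counts 23.8% were called, and among annotated genes of that depth 19.4%. Over all genes it was 13.0%. The 4 of the 12 single-exon loci that were not called had negative log2 fold changes as well, from -0.13 to -0.18. The largest was TALONG000077369, a single exon of 639 bases and the second most counted of all antisense loci. Its CPM was 7168, 7097 and 6558 in siControl and 4977, 4429 and 4629 in siDelta2-4. All 3 siDelta2-4 libraries lay below all 3 siControl libraries. The mean went from 6941 ± 333 to 4678 ± 277 CPM (SD, n = 3 each), which is -0.57 ± 0.08 (SE) on the log2 scale, with an adjusted p = 2.17e-05 in edgeR. The log2 fold change stayed between -0.63 and -0.47 under every alternative and was called in all of them except the one that asked for an absolute log2 fold change over 1.5.

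The single-exon locus TALONG000080329, of 589 bases, moved the other way. It measured 3351, 2861 and 3189 CPM in siControl and 4504, 3940 and 3974 CPM in siDelta2-4. Each siDelta2-4 library was above each siControl library. The log2 fold change was 0.40 ± 0.08 (SE, edgeR adjusted p = 0.00209), from 0.33 to 0.50 across the alternatives.

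Another abundant single-exon locus, TALONG000079482, was 390 bases long. Its CPM was 4804, 4383 and 4096 in siControl and 3934, 3586 and 3796 in siDelta2-4. The groups did not overlap, but the lowest siControl library was close to the siDelta2-4 range. Its log2 fold change was -0.23 ± 0.08 (SE, edgeR adjusted p = 0.0663), and it was no longer called under 9 of 17 alternatives, among them the removal of a trend on length (-0.10, adjusted p = 0.264).

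The 5 multi-exon loci among the 8 most counted were not called. TALONG000072747, the most counted of all with 43099 counts in 18 models of at most 4 exons, measured 7120, 6859 and 6077 CPM in siControl and 6409, 5836 and 6333 in siDelta2-4. These ranges overlapped, and the log2 fold change of -0.11 ± 0.08 (SE) was not called (edgeR adjusted p = 0.418). One 4-exon model of 905 bases, TALONT000436388, held 35826 of its counts and was not called either (log2 fold change -0.08 ± 0.06, edgeR adjusted p = 0.528).

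TALONG000082570, with 32 models of up to 7 exons, measured 5204, 5035 and 4837 CPM in siControl and 4682, 4465 and 4599 in siDelta2-4. The siDelta2-4 values all lay below the siControl values, yet the log2 fold change of -0.13 ± 0.07 (SE) was not called (edgeR adjusted p = 0.280). Its leading model, the 7-exon TALONT000653177 of 892 bases, was not called (log2 fold change -0.09 ± 0.06, edgeR adjusted p = 0.469). At TALONG000073236, with 15 models, CPM was 5059, 4920 and 4775 in siControl and 4511, 4063 and 4318 in siDelta2-4. The groups did not overlap here either, and the log2 fold change of -0.19 ± 0.07 just missed the limit (edgeR adjusted p = 0.106). It was called under 5 of 17 alternatives.

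TALONG000072883, with 26 models, measured 3229, 3328 and 3774 CPM in siControl and 3874, 3647 and 3574 in siDelta2-4. TALONG000076911, with 17 models of at most 648 bases, measured 3580, 3341 and 3214 CPM in siControl and 3412, 2879 and 3353 in siDelta2-4. Both loci overlapped between groups, with log2 fold changes of 0.10 ± 0.08 and -0.07 ± 0.08 (SE) that were not called. Other abundant multi-exon loci did change. TALONG000087443, chosen after its values were seen, had 4 models of at most 3 exons and measured 1270, 1231 and 1106 CPM in siControl and 783, 695 and 749 in siDelta2-4. The groups did not overlap, and the difference, -0.70 ± 0.08 (SE) on the log2 scale with an edgeR adjusted p = 6.3e-06, was larger in size than that of TALONG000077369.

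A 4-exon model of 871 bases, TALONT000445437 of locus TALONG000073099, was the only one of the 3 most counted multi-exon models to be called. It measured 3416, 3341 and 3387 CPM in siControl and 3006, 3013 and 2884 in siDelta2-4, on the scale of the model fit. The groups did not overlap, and the log2 fold change was -0.19 ± 0.06 (SE, edgeR adjusted p = 0.0732). The call was lost under 9 of 17 alternatives.

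The largest changes were at loci with few reads. Among called loci without overlap, the locus with the largest increase was TALONG000074290, a 3-exon model of 1780 bases, with counts of 2, 5 and 1 in siControl and of 14, 22 and 19 in siDelta2-4. Every siDelta2-4 count was above every siControl count. Its log2 fold change was 2.52 ± 0.46 (SE, edgeR adjusted p = 0.000953), and it ranged from 2.12 to 3.30 over the alternatives in which it was tested. With 8 counts in the whole siControl group, this is also a locus that the row rule could not have listed the other way round.

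The next 4 higher loci rose by 1.28 to 1.46 on the log2 scale and had between 55 and 72 counts. TALONG000065674, of 10 exons and 1393 bases, had counts of 3, 3 and 7 in siControl and of 17, 14 and 11 in siDelta2-4. TALONG000074390, of 6 exons and 1177 bases, had counts of 6, 6 and 6 in siControl and of 19, 20 and 15 in siDelta2-4. TALONG000068149, of 7 exons and 2441 bases, had counts of 7, 7 and 4 in siControl and of 20, 19 and 15 in siDelta2-4. At all 3 the siDelta2-4 counts lay above the siControl counts. TALONG000079739, of 5 exons and 746 bases, had counts of 4, 5 and 9 in siControl and of 15, 21 and 15 in siDelta2-4, with its siControl library of lowest total closest to siDelta2-4. The edgeR adjusted p of the 4 was 0.0281, 0.0162, 0.0190 and 0.0351, and each lost its call under between 2 and 6 alternatives. With the same row rule for both groups, TALONG000065674, TALONG000068149 and TALONG000079739 were not in the table, since siControl libraries had fewer than 5 counts, and neither was TALONG000074290. These 4 were listed through siDelta2-4, the group in which they were high, so their p-values are no independent sign of a rise.

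The largest decrease was at TALONG000068321, a 3-exon model of 473 bases, with counts of 36, 40 and 33 in siControl and of 13, 8 and 14 in siDelta2-4. The lowest siControl count, 33, was well above the highest siDelta2-4 count, 14. Its log2 fold change was -1.84 ± 0.28 (SE, edgeR adjusted p = 0.000119), and it was called under all 16 alternatives in which it was tested. The single-exon locus TALONG000074471, of 318 bases, followed with counts of 20, 22 and 21 in siControl and of 11, 9 and 5 in siDelta2-4. All siControl counts were again above the siDelta2-4 counts. The log2 fold change was -1.53 ± 0.33 (SE, edgeR adjusted p = 0.00356), and the locus was also called under all 16 alternatives.

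The other 3 of the 5 largest decreases were fainter. TALONG000073573, of 4 exons, had counts of 24, 11 and 17 in siControl and of 7, 7 and 11 in siDelta2-4. TALONG000076141, of 3 exons, had counts of 15, 19 and 11 in siControl and of 10, 7 and 6 in siDelta2-4. TALONG000081513, of 8 exons, had counts of 13, 10 and 12 in siControl and of 5, 6 and 7 in siDelta2-4. On CPM none of the 3 overlapped between groups, though the margin at the first was narrow. Their log2 fold changes of -1.25, -1.17 and -1.15 had edgeR adjusted p of 0.0348, 0.0427 and 0.0644, and the calls were lost under 5, 6 and 10 of 16 alternatives.

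**Figure D3:**
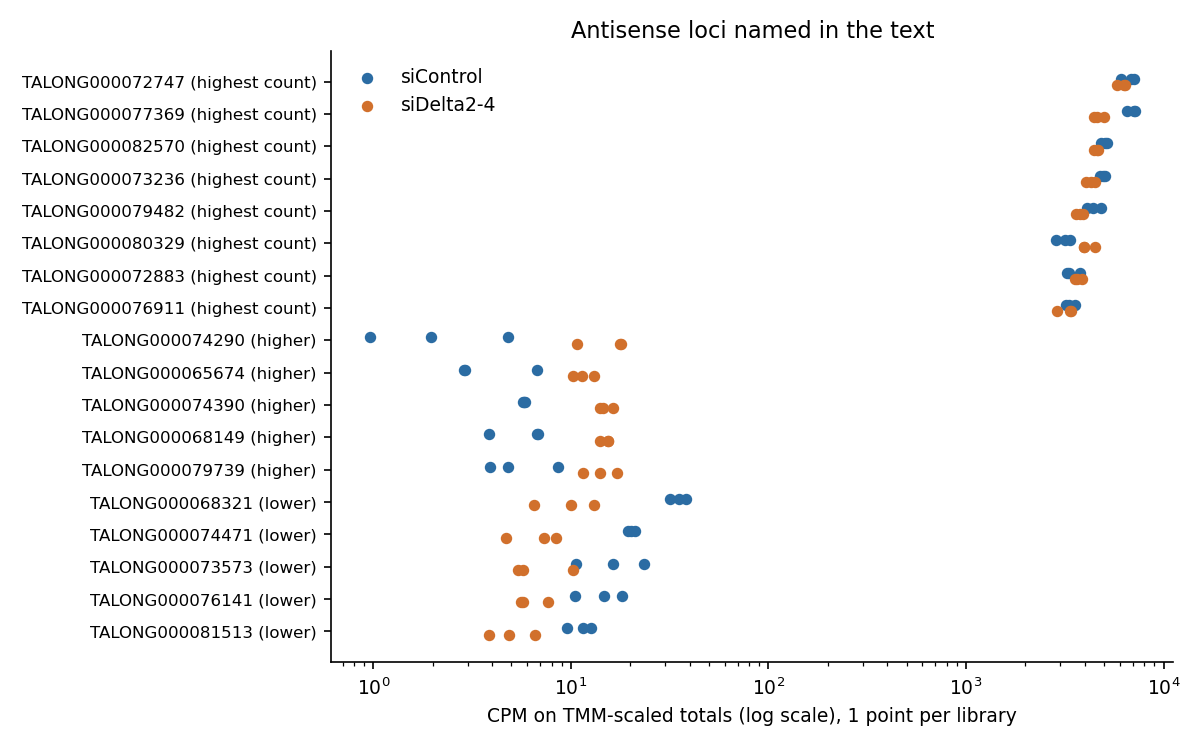
Each point is the CPM of 1 locus in 1 library on a log scale, with siControl in blue and siDelta2-4 in orange, for the 8 most counted loci and the 5 higher and 5 lower loci with the largest change. The 8 most counted loci lie far to the right with small shifts, whereas the 10 loci with the largest changes lie at the left with wide gaps between groups.

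Tested model by model, 160 of 2140 antisense models were called, 84 higher and 76 lower, which was 7.48% beside 6.91% of all models tested (3.95% higher and 2.97% lower). Of the 117 single-exon models tested, 18 were called, 6 higher and 12 lower, and of 2023 multi-exon models 142 were called, 78 higher and 64 lower. The called models belonged to 148 loci, of which 132 were also called as loci. In 8 loci several models were called, and at none of them in opposite directions. Without the lowest siControl library, 423 models were called, 253 higher and 170 lower, which was 18.3% beside 15.3% of all models in that fit.

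Of 571 tested models with 7 or more exons, 34 were higher and 8 lower, with a median log2 fold change of 0.18. They gave 133 higher and 14 lower without the lowest siControl library, 7 and 6 without the highest siControl library and 8 and 6 without the middle one. Without the highest, middle and lowest siDelta2-4 library they gave 14 and 5, 5 and 5, and 26 and 7. Totals alone gave 37 higher and 7 lower, and removing a trend on length gave 17 and 17. Models with 2-3 exons gave 19 higher and 24 lower of 454 (median -0.02), and those with 4-6 exons 25 higher and 32 lower of 998 (median -0.03). Without the lowest siControl library these classes gave 36 higher and 44 lower, and 73 and 84. In that fit 15.3% of all models were called. With totals alone they gave 22 and 18, and 28 and 24. Leaving out any other single library gave 9 to 12 higher and 6 to 15 lower for 2-3 exons. For 4-6 exons it gave 5 to 20 higher and 9 to 20 lower. In those fits 2.46% to 4.64% of all models were called. With all libraries 9.47% of models with 2-3 exons, 5.71% with 4-6 and 7.36% with 7 or more were called, beside 6.91% of all models. Among the called antisense models the higher ones had a median of 6 exons and the lower ones 4. The 5-exon model TALONT000405916 of locus TALONG000071021, one of the 3 largest increases, had counts of 8, 10 and 9 in siControl and of 29, 38 and 23 in siDelta2-4 (log2 fold change 1.54 ± 0.30, edgeR adjusted p = 0.00297). The 4-exon NNC model TALONT000382952 of locus TALONG000070152, one of the 3 largest decreases, had counts of 15, 15 and 10 in siControl and of 5, 5 and 6 in siDelta2-4 (log2 fold change -1.48 ± 0.40, edgeR adjusted p = 0.0304). The call of TALONT000382952 was lost under 6 of 16 alternatives.

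The direction of change went with transcript length. Loci whose count-weighted mean length was under 500 bases had a median log2 fold change of -0.21, with 5 higher and 20 lower calls of 106. Those from 500 to under 750 bases had a median of -0.10, with 5 higher and 28 lower of 263. Those from 750 to under 1000 bases had a median of -0.06, with 13 higher and 28 lower of 323. Above 1000 bases the balance was the other way, with a median of 0.17 and 45 higher and 11 lower of 420 for loci from 1000 to under 1500 bases, and a median of 0.21 and 25 higher and 6 lower of 285 for longer loci. Calls in annotated genes split the same way. They were 4 higher and 21 lower of 156 under 500 bases, and 5 and 36 of 305 from 500 to under 750. From 750 to under 1000 bases they were 14 and 37 of 374. Longer classes gave 55 and 22 of 588 from 1000 to under 1500 bases, and 97 and 19 of 944 above. The called antisense loci that were higher had a median length of 1204 bases and those that were lower 705 bases, beside 1005 bases for all tested antisense loci.

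The size of this difference depended on single libraries. Loci of 1000 bases or more gave 70 higher and 17 lower calls with all libraries, 193 and 27 without the lowest siControl library, and between 21 and 45 higher and 4 and 10 lower without any other single library, the fewest being without the middle siDelta2-4 library. Those under 750 bases gave 10 higher and 48 lower with all libraries, 15 and 104 without the lowest siControl library, and between 5 and 9 higher and 17 and 26 lower without any other single library. Calls over all genes moved too, from 13.0% with all libraries to 25.4% without the lowest siControl library and 4.85% to 7.54% without any other.

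Among multi-exon models the median log2 fold change went up from class to class, with -0.14 under 500 bases, -0.10, -0.02 and 0.18 in the next classes and 0.23 at 1500 bases or more. The single-exon models did not follow this order throughout. Their medians were -0.23 under 500 bases (2 higher and 6 lower calls of 52), -0.05 from 500 to under 750 (1 and 4 of 25), -0.15 from 750 to under 1000 (0 and 2 of 12), 0.15 from 1000 to under 1500 (3 and 0 of 22) and 0.02 for the 6 longer models, none of them called. Annotated genes gave medians from -0.10 under 500 bases to 0.14 at 1500 bases or more, rising with each class as those of antisense loci did.

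The count-weighted mean length of antisense models was 845, 847 and 881 bases in siControl and 874, 894 and 874 bases in siDelta2-4. The lowest siControl library, at 881 bases, lay within the siDelta2-4 range, so the groups overlapped (difference 22.4 bases, exact permutation p = 0.3).

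When a smooth trend on length was removed from each library, 158 loci were called, 70 higher and 88 lower, among them 123 of the 186. This was 11.3% of the antisense loci tested, beside 12.3% of all genes. In that fit the loci of 1000 bases or more gave 33 higher and 37 lower calls in place of 70 and 17, and those under 750 bases 23 higher and 24 lower in place of 10 and 48. Whether the siRNA or the making of the libraries set the lengths cannot be told apart from these counts.

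**Figure D4:**
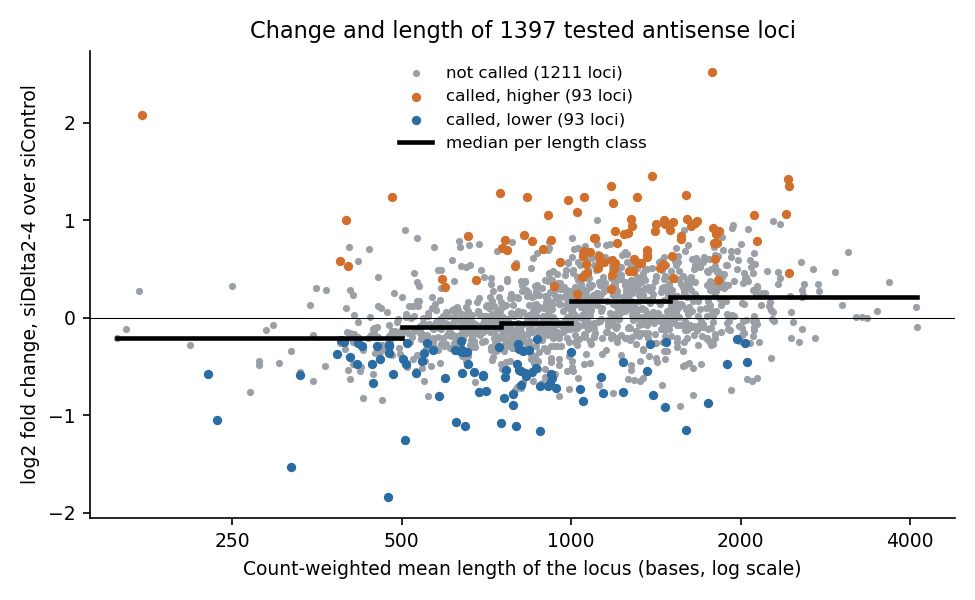
Each point is 1 of the 1397 tested antisense loci, with its count-weighted mean length on a log scale and its log2 fold change. Orange points are the 93 loci called higher and blue points the 93 called lower, and black lines are the medians of the 5 length classes. The medians go from -0.21 under 500 bases to 0.21 at 1500 bases or more.

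Shares within the antisense counts moved little. The single-exon share of the antisense counts was 18.0%, 17.9% and 17.0% in siControl and 17.4%, 16.7% and 16.8% in siDelta2-4. The lowest siControl library fell within the siDelta2-4 range, and the means of 17.6% ± 0.562 and 17.0% ± 0.388 (SD, n = 3 each) gave an exact permutation p = 0.2 (adjusted p = 0.4 over 4 shares). The 10 most counted loci held 19.9%, 19.8% and 19.4% of the antisense counts in siControl and 19.1%, 18.1% and 18.8% in siDelta2-4. These groups did not overlap, and the difference of -0.99 percentage points reached the smallest p possible (exact permutation p = 0.1, adjusted p = 0.4).

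**Figure D5:**
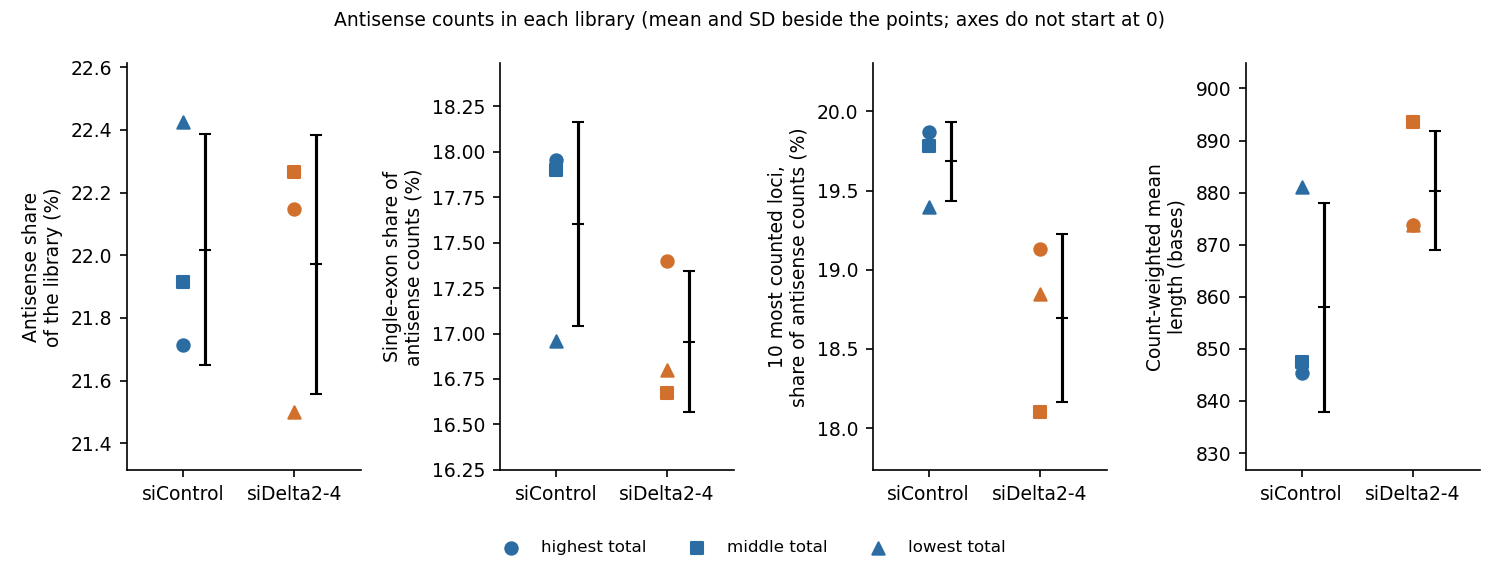
For each library, the panels show the antisense share of the library, the single-exon share of the antisense counts, the share of the 10 most counted loci and the count-weighted mean length, with the mean and SD (n = 3) beside the points. Circles, squares and triangles are the libraries with the highest, middle and lowest total of each group. The groups overlap in every panel but that of the 10 most counted loci, and the siControl triangle lies nearest to the siDelta2-4 points in the panels of single-exon share, 10 most counted loci and length.

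Few changes in the balance between the models of a locus were called. Of 347 loci with at least 2 models tested, 1 was called for a change in the share of its models. The test was the diffSpliceDGE gene-level test at an adjusted p under 0.1, which called 0.618% of all genes so tested. In the same test 34 of the 347 had an unadjusted p under 0.05, beside 109 of all 1132 genes. The called locus was TALONG000078890, with 4 models of 3 to 5 exons. Its 5-exon model of 596 bases held 43.1%, 47.9% and 44.4% of the locus in siControl and 56.2%, 53.9% and 58.1% in siDelta2-4. Its 4-exon model of 534 bases held 44.4%, 41.7% and 47.0% in siControl and 34.5%, 31.8% and 31.9% in siDelta2-4. Neither model's shares overlapped between groups, and the leading model was the longer one in every siDelta2-4 library.

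Over libraries, the 5-exon model of TALONG000078890 went from 45.1% ± 2.45 to 56.1% ± 2.06 and the 4-exon model from 44.3% ± 2.66 to 32.8% ± 1.49 (SD, n = 3 each; diffSpliceDGE in edgeR, adjusted p = 0.0676 for the locus). The locus as a whole was not called (log2 fold change -0.19 ± 0.10, edgeR adjusted p = 0.248). The usage call was lost with a limit of 0.05 and when each library other than the siControl one with the lowest total was left out. Without that library 20 loci were called for usage, TALONG000078890 among them, beside 5.03% of all genes tested in that fit.

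At the 31 loci with both kinds of models, the single-exon model held a median of 12.9% of the locus. In 16 of them both parts had enough counts to test whether they changed differently, and 3 were called (18.8%, diffSpliceDGE, adjusted p under 0.1). Of all 49 genes so tested, these 16 loci included, 4 were called (8.16%). Of the 30 annotated genes among them 1 was called (3.33%). The mean single-exon share was lower in siDelta2-4 at 12 of the 16 and higher at 4. All 3 calls were decreases of the single-exon share.

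At TALONG000067640, with 8 models and a 7-exon model of 1453 bases in the lead, the single-exon model of 568 bases held 3.43%, 3.37% and 2.14% of the counts in siControl and 1.80%, 1.29% and 1.89% in siDelta2-4 (adjusted p = 0.0569, diffSpliceDGE in edgeR). At TALONG000077656 the single-exon model of 1225 bases held 23.2%, 18.8% and 9.35% in siControl and 7.89%, 5.98% and 8.70% in siDelta2-4 (adjusted p = 0.0677, edgeR). At TALONG000070096 the single-exon model of 1272 bases held 27.5%, 27.3% and 8.0% in siControl and 8.23%, 10.2% and 7.41% in siDelta2-4 (adjusted p = 0.0677, edgeR). The lowest siControl library was near the siDelta2-4 values at the first 2 loci and inside their range at the last. Each of the 3 calls was absent when libraries were scaled by totals alone, and without the lowest siControl library 7 of 20 loci were called, these 3 among them. None of the 3 loci was called as a whole.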

How the data were processed

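The deposited values were raw counts of reads per transcript model, which the authors made from PCR-cDNA libraries sequenced on a MinION. Per the study's methods and the submitters' processing notes, the authors used minimap2 2.14 (GRCh38), SAMtools 1.13, TranscriptClean and then TALON with Gencode 44. They dropped unannotated models that did not reach 5 reads in 3 samples. Models of the TALON gene class Antisense were taken, and counts were summed per locus. Column names gave the siRNA, hence the group, and all 6 columns were used. All genes or models were fitted with edgeR 4.0.16 (R 4.3.3; filterByExpr, TMM, quasi-likelihood test, Benjamini-Hochberg, adjusted p under 0.1), and usage with diffSpliceDGE. The SE is the absolute log2 fold change over the square root of F. Shares were compared with exact permutation tests. Alternatives were DESeq2 1.42.0, other scalings, filters and thresholds, one row rule for both groups, a loess trend on length (span 0.4), a block on column number and each library left out. Scripts were tested on simulated data. Named loci were the 8 most counted, the 5 higher and 5 lower with the largest change among called loci without overlap, the 3 with most models and those called for usage or exon class, and named models were chosen likewise, with the longest and the one with most exons. Further loci were picked once their values had been seen, where the text says so. The members and lists were chosen with earlier results of these data known. Intervals and SDs cover the 6 libraries alone. No locus had a position or sequence in the sources used here, so none is shown.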

Additional observations from a re-analysis of the deposited data

How the results depend on the processing

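The depth limits what can be seen at most loci, since 677 of 1746 had fewer than 100 counts, and the filter left 349 untested. Against 186 loci, 73 were called by DESeq2, 106 at an adjusted p under 0.05, 4 with limits of 0.01 on the unadjusted p and 1.5 on the absolute log2 fold change, and between 67 (without the middle siDelta2-4 library) and 412 (without the lowest siControl library) when 1 library was left out. In that order these were 5.23%, 7.59%, 0.286%, 4.69% and 28.1% of the antisense loci tested. Of all genes 5.68%, 7.82%, 0.283%, 4.85% and 25.4% were called, against 13.0% in the main fit. Against 160 models, the same alternatives gave 45, 91, 5, and 50 to 423. Of all models they called 2.35%, 4.34%, 0.236%, and 2.46% to 15.3%, against 6.91% in the main fit. Under the other scalings, filters, the common row rule and the length trend, counts of loci were between 149 and 195 and counts of models between 133 and 169. These were 8.53% to 16.3% of antisense loci and 4.53% to 9.14% of antisense models. Of all genes 4.13% to 15.7% were called and of all models 1.94% to 8.47%, lowest with no filter on low counts. Scaling by library totals alone called 114 loci higher and 59 lower and moved the median of all genes from 0.03 to 0.09 on the log2 scale.

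The 1 locus called for usage became 2 with no filter on low counts, 2 with at least 10 counts in every library, 0 at an adjusted p under 0.05, and 0 to 20 when 1 library was left out. The 3 loci called for exon class became 0 with library totals alone, 0 with no filter, 0 at an adjusted p under 0.05, 1 with the common row rule, and 0 to 7 when 1 library was left out. The causes were not tested.

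The difference in antisense share (-0.046 percentage points) was 0.145 without the 10 most counted loci, 0.158 when the lowest siControl library and 0.189 when the lowest siDelta2-4 library was left out, and between -0.199 and 0.189 with any library left out. The log2 fold change of TALONG000076911 (-0.07) was 0.0284 with the length trend removed and between -0.13 and 0.0021 with any library left out, the latter without the middle siDelta2-4 one. That of TALONG000067640 (0.03) was -0.12 with the length trend removed, 0.13 without the lowest siControl library, and -0.033, -0.033 and -0.0010 without the highest siControl library, the middle siControl library and the highest siDelta2-4 library. Neither locus was called.

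The column names carry numbers, but same-numbered libraries did not deviate together (correlations of 0.039, -0.14 and -0.084 over all genes), so they were not taken as pairs. A replicate block on the number gave 105 called loci, 143 models, 0 loci for usage and 3 for exon class. With that block 7.69% of all genes and 6.34% of all models were called.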

Other observations

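Among loci chosen after their values were seen, TALONG000080721, a single exon of 173 bases, had counts of 26, 24 and 21 in siControl and of 197, 139 and 22 in siDelta2-4. Its log2 fold change of 2.08 ± 0.38 was called (edgeR adjusted p = 0.000884), although the lowest siDelta2-4 library lay within the siControl range of CPM.

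The class can be set beside the annotated genes whose symbol ends in AS and a number, which are antisense genes that the annotation already names. Of 54 tested, 14 were called (25.9%), 7 higher and 7 lower. Of 124 tested intergenic TALON loci 8 were called (6.45%), 4 higher and 4 lower. These shares stand beside 13.3% of the antisense loci and 13.0% of all genes. The differences from the antisense loci were not tested.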
